A study of Rattus norvegicus with 13 samples.

Results

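Phospholipase D and Arf family GTPases were followed as a group of 8 transcripts in the newborn rat ventricular zone (VZ): the phospholipases *Pld1*, *Pld2* and *Pld3*, the ADP-ribosylation factors *Arf1* and *Arf6*, and the Arf-like GTPases *Arl4a*, *Arl4c* and *Arl4d*. The 8 members were chosen by gene name, and the family was selected on measured values, namely the differences between PTU exposed and control pups in these same libraries, so those differences are given as a description and without a test. All 8 names were found among 14716 rows of the normalized count table, with 1 row for each name.

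Phospholipase D enzymes cut the membrane lipid phosphatidylcholine into phosphatidic acid, a signaling lipid, and choline. Arf proteins are small GTPases that, when loaded with GTP by an exchange factor, recruit vesicle coats and lipid-modifying enzymes to membranes, and Arf1 and Arf6 are classical activators of phospholipase D. Arl4 proteins sit largely at the plasma membrane, where they recruit exchange factors of the cytohesin family and through these act on Arf6 and the actin cytoskeleton. In the VZ, a pseudostratified sheet of progenitors called radial glia, membrane traffic and cortical actin serve the apical junctions by which these cells hold on to the ventricular surface.

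Total RNA was sequenced from the posterior VZ of male Long Evans rat pups on postnatal day 2 (PN2), 1 pup per litter. The control group was 7 euthyroid pups whose dams drank water with vehicle only. The PTU group was 6 hypothyroid pups whose dams received 3 ppm propylthiouracil (PTU) in the drinking water. PTU inhibits thyroid hormone synthesis, and the exposure began in early pregnancy and went on after birth. The VZ was recognized in sections by its pseudostratified appearance and captured with a laser, the exposure reached the pups through the dam, and the RNA was partly degraded according to the study's methods. The design asks how a low supply of thyroid hormone bears on gene expression in this progenitor niche. Because each library holds all the captured cells of 1 pup, fewer cells of a type and less RNA per cell cannot be told apart.

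The estimated depth was 22292421 to 43502223 reads in control pups and 28416307 to 44383053 in PTU exposed pups, and each member rested on at least 344 estimated reads in every pup. The 3 highest rows took 32.4 to 60.1% of the values in control pups and 23.9 to 57.0% in PTU exposed pups. The dissected tissue carried the radial glia marker *Sox2*, at 7107 ± 1050.4 (SD) in the 7 control and 6701 ± 969 in the 6 exposed pups, a log2 difference of -0.08 (limma adjusted p = 0.736). This was the smallest difference of the 10 radial glia markers, all of which had a lower mean after PTU (median -0.33, lowest -0.62, 6 with an unadjusted p under 0.05), among them *Pax6* at -0.44 (limma adjusted p = 0.150) and *Vim* at -0.36 (limma adjusted p = 0.152). Markers of other cells were present as well, although the study states that choroid plexus cells were not part of the sequenced material. Ttr, a choroid plexus transcript, stood at 91587 ± 25254 in control and 51489.5 ± 22179 in PTU exposed pups (log2 difference -0.90, limma adjusted p = 0.161), and all 9 choroid plexus markers measured had a lower mean after PTU, while all 10 neuronal and all 7 oligodendrocyte lineage markers had a higher one (median log2 differences 0.33 and 0.25) and 4 of 5 intermediate progenitor markers a lower one (median -0.34). None of these markers passed the threshold.

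Over the whole table, 0 of 14606 tested rows passed an adjusted p of 0.05 in limma (0%), with a smallest adjusted p of 0.0981. With DESeq2, the study did report differentially expressed genes in these libraries at an FDR of 0.05 or less. The count of 0 thus belongs to the limma fit to normalized values. In that fit an unadjusted p under 0.05 was reached by 2383 rows (16.3%), of which 1185 were higher and 1198 lower after PTU. In 87 rows (0.596%) control and PTU values had no overlap. Of the 8 members, 0 passed the adjusted threshold, 2 had an unadjusted p under 0.05, and the same 2, *Pld2* and *Arl4c*, had no overlap either. Since the members were selected on this contrast, nothing is read from these counts. The members had a median log2 difference of 0.04 against 0.00 over all tested rows. All values that follow are normalized counts unless another scale is named, and log2 differences are PTU minus control of log2(normalized count + 1) with the standard error (SE) from limma.

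**Figure D1:**
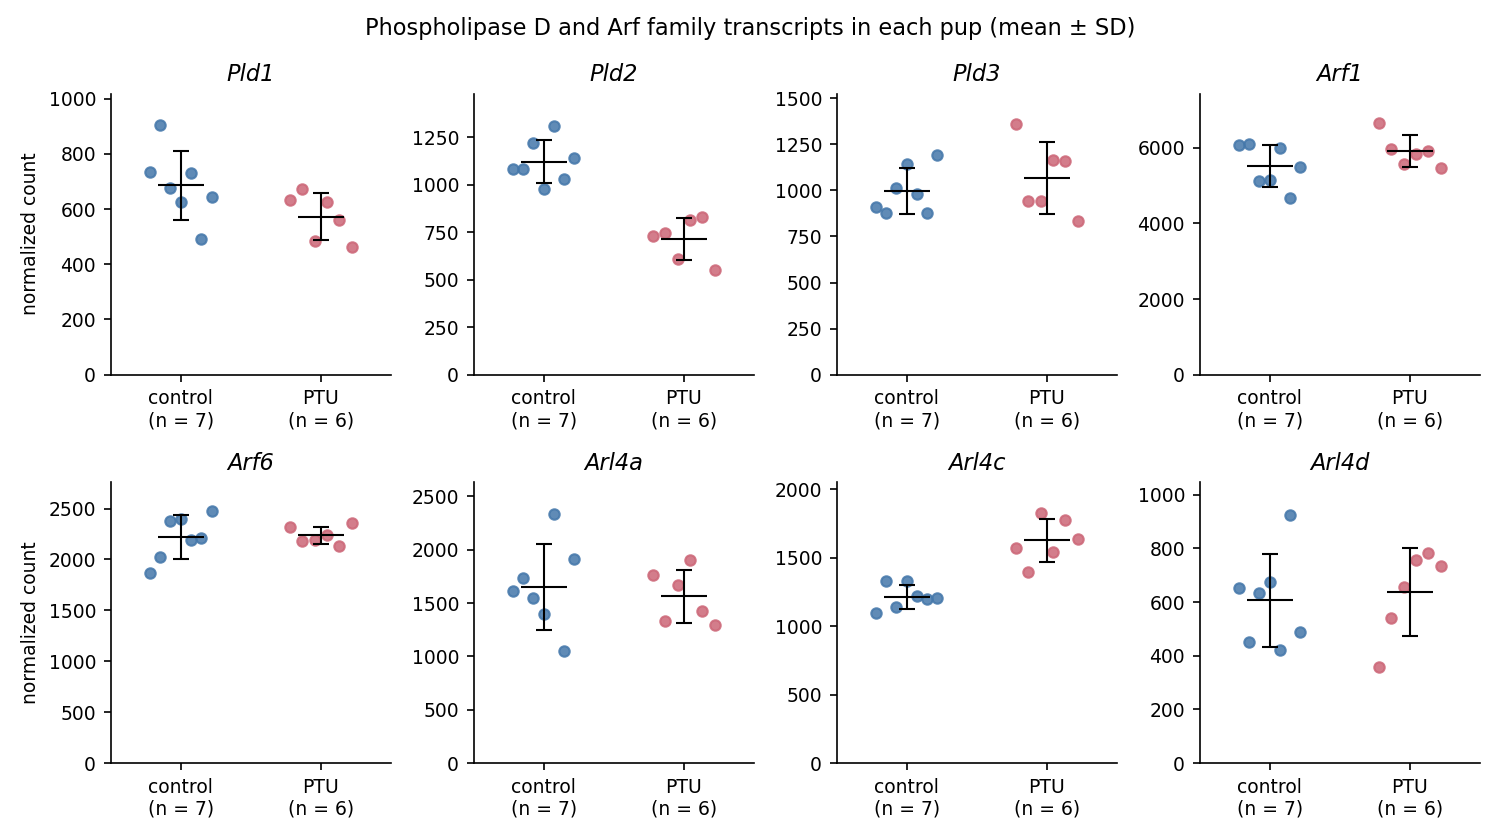
Normalized counts (y axis, from 0) of the 8 members in each of 7 control and 6 PTU exposed pups; points are pups, and bars give the mean ± SD. The PTU points for Pld2 lie below all control points (highest PTU 830.4, lowest control 977), those for Arl4c lie above all control points (lowest PTU 1397, highest control 1331), and the groups overlap for the other 6 genes.

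*Pld2* (ENSRNOT00000056998) encodes the phospholipase D isoform with high basal activity, found mainly at the plasma membrane. In control pups its lowest, median and highest values were 977, 1086 and 1309, and in PTU exposed pups they were 549.5, 739 and 830.4. Every PTU exposed pup was below every control pup, with the lowest value in PTU pup 6 and the highest in control pup 5. The means were 1121 ± 113 (SD, n = 7) and 714 ± 112 (SD, n = 6), a difference of -36.3% relative to control and a log2 difference of -0.66 (SE 0.11). The SD within groups was 0.19 on the log2 scale, beside a median of 0.21 for rows of similar mean.

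*Pld1* (ENSRNOT00000039296) encodes the isoform that has low basal activity and responds to Arf GTPases and protein kinase C. It ran from 490.3 through a median of 678 to 904 in control pups, and from 461 through 593 to 673 in PTU exposed pups. The groups overlapped broadly, although all 6 PTU exposed pups were below the control mean. The means of 686 ± 126 and 573 ± 85.9 (SD) gave a log2 difference of -0.25 (SE 0.14). Control pup 6 and PTU pup 6 were the lowest of their groups.

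*Pld3* (ENSRNOT00000102599) shares the phospholipase fold, but its product works in endosomes and lysosomes as an exonuclease on single-stranded nucleic acids. It ran from 878 through 978 to 1189.9 in control pups and from 835 through 1052 to 1361 in PTU exposed pups. The groups overlapped, with 3 PTU exposed pups above and 3 below the control mean. The log2 difference of 0.08 (SE 0.12) was smaller than the SD within groups of 0.22.

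Ratios between members within a pup do not depend on how the libraries were scaled, although they are not corrected for transcript length. *Pld2* divided by *Pld3* was 0.855 to 1.34 in control pups (median 1.19) and 0.538 to 0.791 in PTU exposed pups (median 0.679), without overlap, as for *Pld2* alone. *Pld2* divided by *Pld1* was 1.20 to 2.11 (median 1.77) and 1.11 to 1.48 (median 1.23), with overlap. *Pld1*, the denominator of the overlapping ratio, was itself lower on average after PTU. *Pld1* over *Pld3* was 0.541 to 1.03 in control and 0.465 to 0.713 in PTU exposed pups, again with overlap.

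*Arf1* (ENSRNOT00000080028), the GTPase that recruits the COPI coat and clathrin adaptors at the Golgi, had its lowest, median and highest values at 4673, 5489.5 and 6102 in control pups and at 5476, 5885 and 6663 in PTU exposed pups. The ranges overlapped, and 5 of 6 PTU exposed pups were above the control mean. The means of 5521 ± 563 and 5908 ± 419.7 (SD) differed by 0.10 on the log2 scale (SE 0.08), within the SD of 0.13 between pups.

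*Arf6* (ENSRNOT00000006355), which acts at the plasma membrane and on recycling endosomes and remodels cortical actin, had the smallest SD within groups on the log2 scale of the 8 members, 0.11 beside 0.12 for *Arl4c*. It ran from 1870.0 through 2209 to 2479 in control pups and from 2135 through 2212 to 2358 in PTU exposed pups. All PTU values lay inside the control range, with 3 above and 3 below the control mean. The coefficient of variation was 9.79% in control and 3.81% in PTU exposed pups, and the log2 difference was 0.01 (SE 0.08). The ratio of *Arf1* to *Arf6* was 2.12 to 3.25 (median 2.21) in control and 2.32 to 2.88 (median 2.67) in PTU exposed pups, so the balance of both GTPases overlapped between groups. The ratio of *Arf6* to *Pld2* was 1.67 to 2.45 in control and 2.57 to 4.29 in PTU exposed pups, a separation already fixed by the ranges of both genes.

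*Arl4c* (ENSRNOT00000102095) encodes an Arl4 protein known for directing cytohesins and Cdc42 activity in migrating cells. In control pups its lowest, median and highest values were 1095, 1207 and 1331, and in PTU exposed pups 1397, 1606 and 1830.0. All PTU exposed pups were above all control pups, with PTU pup 2 closest to the control range and PTU pup 3 farthest from it. The means were 1216 ± 88.5 (SD, n = 7) and 1627 ± 159 (SD, n = 6), which is 33.8% higher after PTU and a log2 difference of 0.42 (SE 0.08). The control pups were tightly grouped, with a coefficient of variation of 7.28%, and the SD within groups of 0.12 on the log2 scale compares with a median of 0.19 for rows of similar mean.

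*Arl4a* (ENSRNOT00000108440), whose product recruits cytohesins to the plasma membrane, ran from 1050.4 through 1609.9 to 2331 in control pups and from 1291 through 1544 to 1899 in PTU exposed pups. The PTU values lay inside the control range, 3 above and 3 below the control mean. The log2 difference was -0.06 (SE 0.15), and the SD within groups of 0.31 exceeded the 0.19 typical of rows with a similar mean. *Arl4a* thus carried more variation between pups than most rows of its level, in contrast to *Arl4c*.

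*Arl4d* (ENSRNOT00000107424), which also recruits cytohesins and acts on Arf6, was the most variable member. It ran from 420.4 through 633 to 924 in control pups and from 357 through 695 to 782 in PTU exposed pups. The groups overlapped over most of their range, and the log2 difference of 0.07 (SE 0.20) was far below the SD within groups of 0.41. Control pup 6, which had the lowest *Pld1*, *Arf1* and *Arl4a* of the control group, had the highest *Arl4d* of all pups. The ratio of *Arl4c* to *Arl4a* was 0.522 to 1.14 (median 0.734) in control and 0.813 to 1.27 (median 1.07) in PTU exposed pups, with overlap, and that of *Arl4c* to *Arl4d* overlapped as well.

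Pld2 and Arl4c were read together in each pup. The ratio of *Arl4c* to *Pld2* was 0.930 to 1.36 in control pups and 1.87 to 3.00 in PTU exposed pups (medians 1.06 and 2.15). As each gene alone separated the groups, and in opposite directions, the separation of this ratio adds nothing to it. Within groups the 2 transcripts were not shown to vary together across the 13 pups (Pearson's r = -0.31, permutation adjusted p = 0.625, and rho = -0.38, permutation adjusted p = 0.437). PTU pup 6, with the lowest *Pld2*, had an *Arl4c* of 1638, inside the PTU range.

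**Figure D2:**
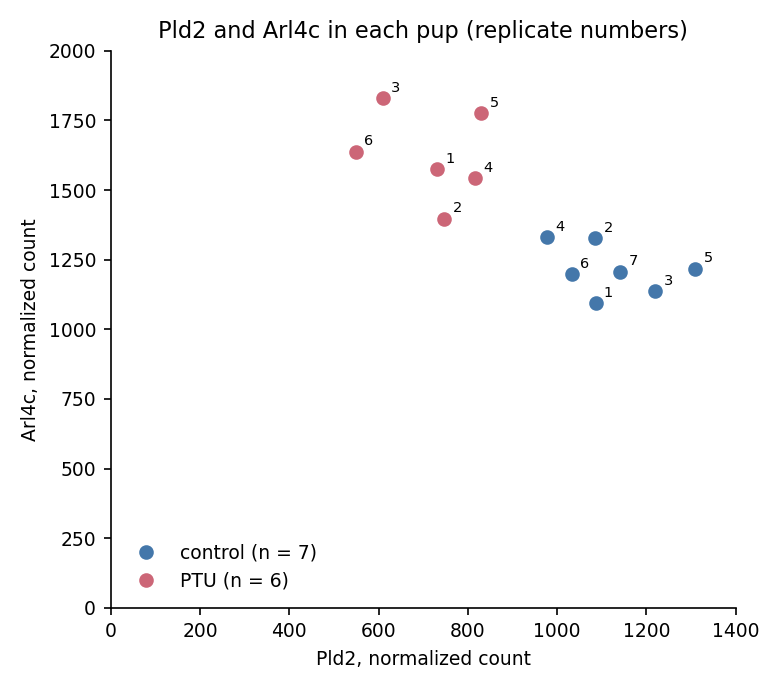
Normalized count of Pld2 (x axis) against that of Arl4c (y axis) in each pup, numbered by replicate, for 7 control and 6 PTU exposed pups. The PTU pups occupy the upper left (Pld2 549.5 to 830.4, Arl4c 1397 to 1830.0) and the control pups the lower right (Pld2 977 to 1309, Arl4c 1095 to 1331).

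The members' differences were followed through 25 alternatives of scaling, filtering, covariates and pups left out. These alternatives reuse the same 13 pups, so a sign kept in all of them is no independent support. *Pld2* stayed lower after PTU in all of them, from -0.71 to -0.46, and *Arl4c* higher, from 0.38 to 0.62. *Pld1* ran from -0.33 to -0.05 (SE 0.14 as reported) and *Arf1* from 0.06 to 0.30 (SE 0.08 as reported). The direction of *Arf6*, *Arl4a* and *Arl4d* turned in 5, 2 and 2 alternatives besides equal totals, and *Pld3* ran from 0.00 to 0.29. No direction is given for any member other than *Pld2* and *Arl4c*. With totals made equal between pups, the median of all rows moved to 0.20 and 37 rows (0.253%) had groups without overlap, with none of the 8 members among them. Relative to that shift *Pld2* was at -0.66, *Arl4c* at 0.41, *Pld1* at -0.26 and *Arf1* at 0.10.

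The adjusted threshold was reached by a member in 4 alternatives. *Pld2* was among the called rows without control pup 6 (7 rows called, 0.0479%), without PTU pup 2 (179 rows, 1.23%), with array weights (40 rows, 0.274%) and with the replicate number as a block (18 rows, 0.123%). *Arl4c* was among them without PTU pup 2, where its log2 difference was 0.46, and with array weights. As the members were selected on this contrast, these calls describe the fits and are no test of the genes.

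**Figure D3:**
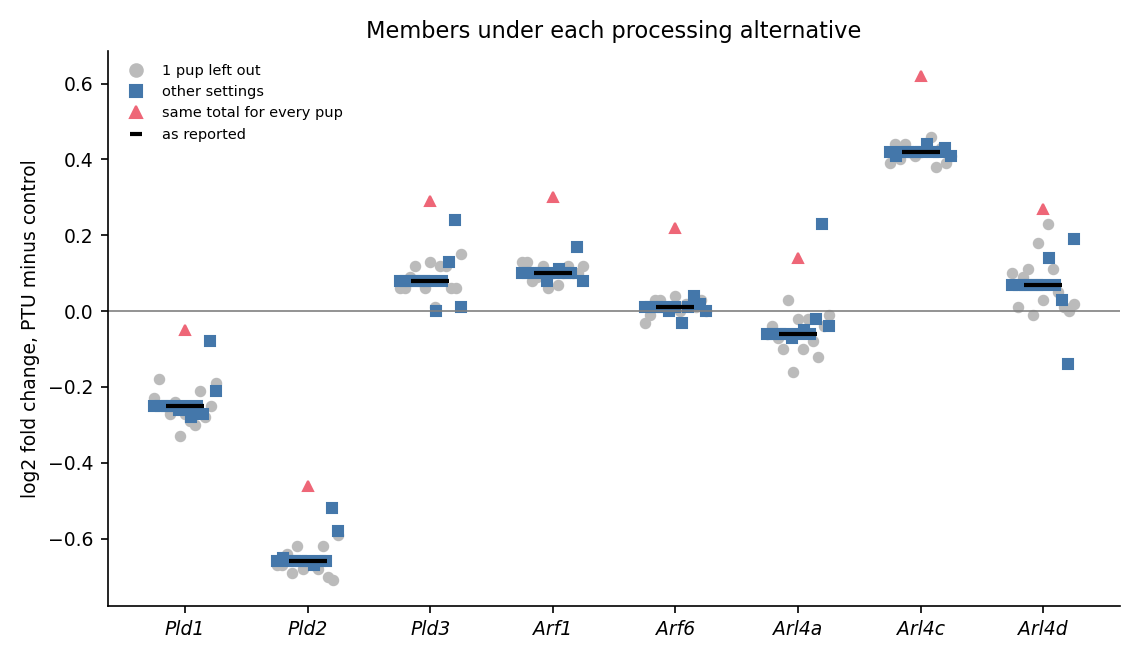
Log2 difference, PTU minus control (y axis), of each member as reported (black bars), with 1 pup left out (grey circles), with totals made equal (red triangles) and under the other settings (blue squares). Pld2 stays between -0.71 and -0.46 and Arl4c between 0.38 and 0.62, while the values of Arf6, Arl4a and Arl4d fall on both sides of 0.

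Levels of cell type markers, none of which passed the threshold, are given beside the members. The summed level of the 9 choroid plexus markers was 49090.4 to 138374 in control and 22952 to 98234 in PTU exposed pups, that of the 10 neuronal markers 54773 to 79379 and 71719 to 123626, and that of the 10 radial glia markers 75130.3 to 104572 and 62176 to 82649. With the choroid plexus score as a covariate, the log2 difference of *Pld2* was -0.52 (SE 0.12) and that of *Arl4c* 0.43 (SE 0.10), and with the neuronal score they were -0.58 (SE 0.12) and 0.41 (SE 0.10). The part of the radial glia markers in either difference was not tested.

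*Arl4a* was the member that followed the choroid plexus score. With group means removed, its Pearson's r with that score over 13 pups was 0.79 (permutation p = 0.000170, adjusted p = 0.00272 over 16 relations), Spearman's rho was 0.90 (permutation p = 0.000160, adjusted p = 0.00256), and r was 0.65 without the 2 pups farthest from the median score. With the score as a covariate the log2 difference of *Arl4a* moved from -0.06 to 0.23 (SE 0.12), that of *Pld1* from -0.25 to -0.08 (SE 0.14) and that of *Pld3* from 0.08 to 0.24 (SE 0.12). *Pld1*, *Pld2* and *Pld3* each had an r of 0.61 with the choroid plexus score, which did not pass the correction (permutation adjusted p = 0.185), with rho from 0.48 to 0.53 and an r of 0.07 to 0.35 without the 2 farthest pups. For *Arl4c* the r was 0.12 with the choroid plexus score and 0.03 with the neuronal score. For *Pld2* the r with the neuronal score was -0.43 (permutation adjusted p = 0.536), the rho -0.60 (permutation adjusted p = 0.285), and the r -0.66 without the 2 farthest pups.

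Covariation between members was examined with the group means removed, so that it does not rest on the difference between groups. Of 28 pairs, 2 passed an adjusted p of 0.05 for Pearson's r, and 0 passed without control pup 6 or without PTU pup 6, so both calls were lost there. A single pair passed without control pup 2, 3, 4, 5 or 7 and without PTU pup 1 or 2. *Pld1* and *Arf1* varied together from pup to pup, with r = 0.83 (permutation p = 0.000390, adjusted p = 0.0109) and rho = 0.82 (permutation p = 0.000980, adjusted p = 0.0274). The r was 0.88 among control pups, 0.74 among PTU exposed pups and 0.70 without the 2 pups farthest from the median. It was 0.74 to 0.87 when any 1 pup was left out and 0.79 with quantile normalization. Scaling to equal totals is no check of this pair, since 21 of 28 pairs passed there. With the choroid plexus score, r was 0.61 for *Pld1* and 0.47 for *Arf1* (permutation adjusted p = 0.185 and 0.320). Without the 2 pups farthest from the median score, these were 0.07 and -0.07. The part of choroid plexus content in this pair was not tested.

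*Arf1* and *Arl4d* went in opposite directions, with r = -0.78 (permutation p = 0.00317, adjusted p = 0.0444) and rho = -0.69 (permutation p = 0.0148, adjusted p = 0.207), the latter short of the threshold. The r was -0.78 in control and -0.83 in PTU exposed pups, and -0.58 without the 2 farthest pups. With quantile normalization it was -0.75, and with equal totals, which are no check here either, 0.05. With the choroid plexus score, r was 0.47 for *Arf1* and -0.44 for *Arl4d* (permutation adjusted p = 0.320 and 0.429). The part of choroid plexus content in this pair was not tested either. *Arl4a* and *Arl4d* had an r of -0.67 that did not pass the correction (permutation adjusted p = 0.126, and 0.308 for a rho of -0.59), and it was -0.95 in control against -0.24 in PTU exposed pups, a difference that was not tested. Pld1 and Pld2 had an r of 0.54 (permutation adjusted p = 0.249, and 0.308 for a rho of 0.50).

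**Figure D4:**
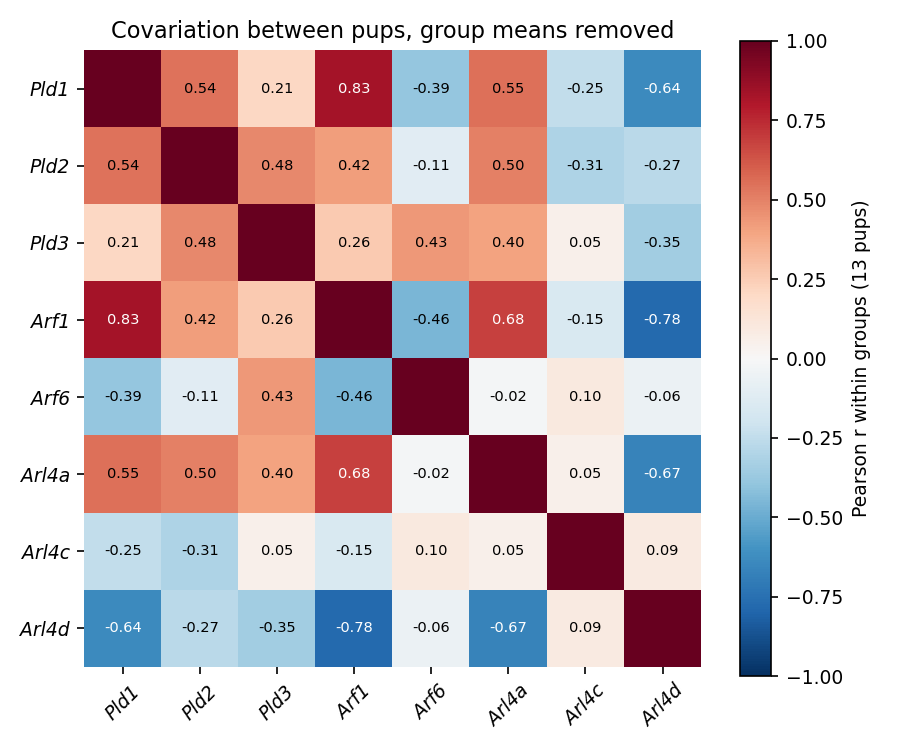
Pearson's r between members over 13 pups, computed on log2 values with the group means removed; both axes list the 8 genes, and the color scale runs from -1 (blue) to 1 (red). The strongest positive pair is Pld1 with Arf1 (0.83) and the strongest negative pair is Arf1 with Arl4d (-0.78).

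The rows whose pattern over pups was most like that of *Pld2*, with group means removed and among 11085 named rows averaging 100 or more, were picked as the 5 with the highest r and so carry no test. Their rho was 0.87 to 0.92, and their r was 0.81 to 0.90 without the 2 pups farthest from the median. *Lfng*, a glycosyltransferase that modifies Notch receptors, had an r of 0.92, and *Nkain4*, which encodes a protein that interacts with the sodium pump, had an r of 0.92. *Hapln1*, a link protein of the hyaluronan matrix, followed with 0.90, *Id3*, an inhibitor of bHLH transcription factors, with 0.89, and *Ttc13* with 0.87. None of the 5 passed the threshold between groups. Their log2 differences were -0.42 for *Lfng* (limma adjusted p = 0.269), -0.34 for *Nkain4* (0.292), -0.30 for *Hapln1* (0.260), -0.08 for *Id3* (0.864) and 0.22 for *Ttc13* (0.233).

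The wider pathway was read from 6 lists of other genes, 109 in all, of which 100 were tested. In these lists 0 genes passed the adjusted threshold, 19 had an unadjusted p under 0.05 (19.0%, beside 16.3% of all rows), 13 of them higher and 6 lower, and in 0 genes the groups stood apart without overlap. The median log2 difference was 0.04, with a range from -0.48 to 1.20 and a smallest adjusted p of 0.161. The values below are therefore differences that did not pass the test.

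Of the other phospholipase D family members, *Pld5* was at 191 ± 64.5 in control and 156 ± 65.1 in PTU exposed pups (log2 difference -0.32, limma adjusted p = 0.599), and *Pld4*, an endolysosomal relative of *Pld3*, at 234 ± 41.2 and 229 ± 65.8 (-0.06, limma adjusted p = 0.907). With 1 pup left out, the log2 difference was -0.46 to -0.18 for *Pld5* and -0.17 to 0.04 for *Pld4*, whose sign thus turned. Among 24 activators and enzymes of phosphatidic acid, 1 was higher and 2 were lower at an unadjusted p under 0.05. *Pip5k1c*, a kinase that makes the phospholipase D cofactor phosphatidylinositol 4,5-bisphosphate, was at 2644 ± 227 and 3259.5 ± 707 (0.28, limma adjusted p = 0.241), and at a log2 difference of 0.18 without PTU pup 1. *Plpp3*, a phosphatase of phosphatidic acid and related lipids, was at 5208 ± 799 and 4330.2 ± 678 (-0.27, limma adjusted p = 0.260), and *Ralb*, a GTPase of the Ral family that binds phospholipase D, was at 553 ± 51.4 and 463 ± 92.6 (-0.27, limma adjusted p = 0.297).

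Among 20 other Arf, Arl and Sar GTPases, 2 were higher and 0 lower at that unadjusted level, with a median log2 difference of 0.05. *Arl15* was at 440.4 ± 75.4 in control and 572 ± 128 in PTU exposed pups (0.37, limma adjusted p = 0.246), and *Arf2*, a Golgi Arf close to *Arf1*, at 986 ± 98.8 and 1144 ± 131 (0.21, limma adjusted p = 0.294). *Arl5a*, an Arl of the trans-Golgi, was lower on average (-0.22, limma adjusted p = 0.447).

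Exchange factors, which load Arfs with GTP, numbered 15, with 2 higher and 2 lower at that level. *Iqsec3* and *Psd*, exchange factors for Arf6 found at synapses, had the larger differences of the named factors, at 404 ± 93.9 and 739 ± 374 for *Iqsec3* (0.77, limma adjusted p = 0.161) and 888 ± 292 and 1522 ± 887 for *Psd* (0.67, limma adjusted p = 0.249). PTU pup 1 held the highest value of both, 1401 and 3109 against PTU medians of 579 and 1084, and without it the log2 differences were 0.56 and 0.43. The mean of all 10 neuronal markers was also higher in the PTU group, and their part in the values of *Iqsec3*, *Psd* and *Agap2* was not tested. *Iqsec1*, also an exchange factor for Arf6, was lower on average (-0.22, limma adjusted p = 0.255). *Arfgef2*, an exchange factor for Arf1 whose loss causes periventricular heterotopia in people, was at 1185 ± 161 and 978 ± 172 (-0.28, limma adjusted p = 0.265).

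GTPase-activating proteins, which switch Arfs off, numbered 22, with 4 higher and 1 lower. *Agap2* was at 2050.0 ± 515 and 3552 ± 2038 (0.66, limma adjusted p = 0.226), but PTU pup 1 alone reached 7195 against a PTU median of 2643, and without it the log2 difference was 0.43. *Agap1* was at 2676 ± 281 and 3185 ± 466 (0.25, limma adjusted p = 0.243), and *Arap1* at 1197 ± 172 and 979 ± 129 (-0.29, limma adjusted p = 0.228). Of 17 effectors and coat subunits, 4 were higher and 1 lower. *Spag9*, a motor scaffold that binds Arf6, was at 7424 ± 395 and 8535 ± 546 (0.20, limma adjusted p = 0.178), *Exoc5*, an exocyst subunit, at 1916 ± 238 and 2291 ± 198 (0.26, limma adjusted p = 0.181), and *Gga3*, an Arf-dependent clathrin adaptor, at 519 ± 44.7 and 633 ± 81.5 (0.28, limma adjusted p = 0.208).

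**Figure D5:**
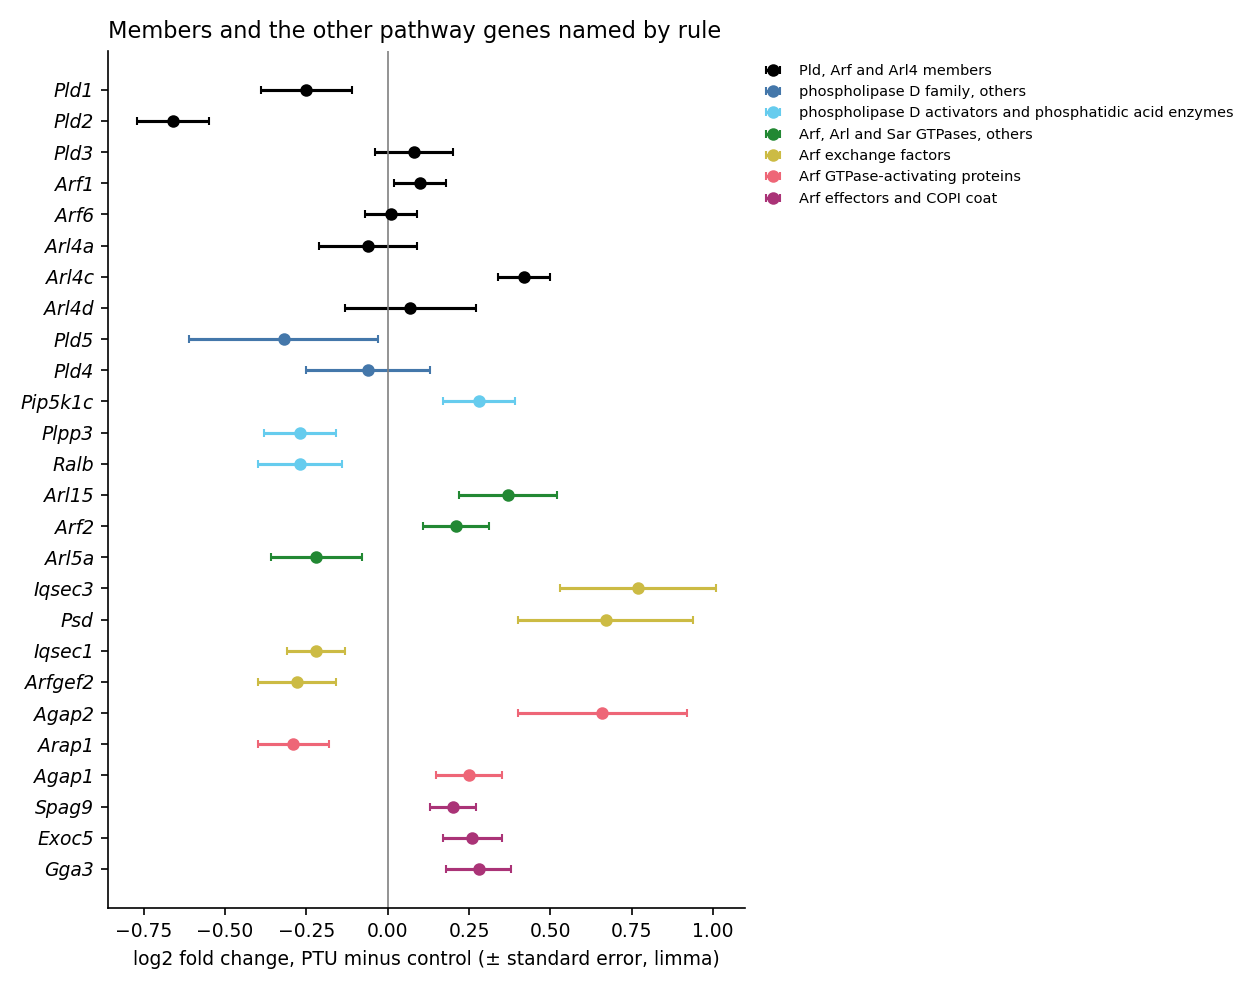
Log2 difference, PTU minus control (x axis), with its standard error from limma, for the 8 members (black) and 18 other genes of the pathway colored by list. Pld2 (-0.66) and Arl4c (0.42) have narrow bars, while Iqsec3 (0.77), Psd (0.67) and Agap2 (0.66) have wide ones.

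The promoters of the 8 members were taken from RefSeq (assembly GRCr8) as the 250 bases before each annotated start, and all 8 were matched. Those of *Pld2* and *Arl4c* are shown because these transcripts separated the groups, and capitals mark the GC box GGGCGG on either strand.

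Pld2: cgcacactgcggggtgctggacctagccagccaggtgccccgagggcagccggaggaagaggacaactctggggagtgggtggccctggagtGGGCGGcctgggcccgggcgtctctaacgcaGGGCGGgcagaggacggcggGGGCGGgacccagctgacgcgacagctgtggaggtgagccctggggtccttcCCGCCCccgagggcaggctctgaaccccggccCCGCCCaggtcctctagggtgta

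Arl4c: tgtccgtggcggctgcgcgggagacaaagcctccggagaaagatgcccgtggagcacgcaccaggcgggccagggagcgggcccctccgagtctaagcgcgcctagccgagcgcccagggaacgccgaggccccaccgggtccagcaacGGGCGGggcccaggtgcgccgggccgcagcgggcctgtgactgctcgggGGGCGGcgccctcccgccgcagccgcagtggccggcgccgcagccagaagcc

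The *Pld2* stretch, chr10:55754746-55754995 on the plus strand, held 5 GC boxes and was 73.2% G or C, and the *Arl4c* stretch, chr9:96751511-96751760 on the minus strand, held 2 and was 77.2% G or C. The median over 33469 promoters was 51.2%. A GC box was found in 7 of 8 members, the exception being *Pld1*, and in 30.5% of all promoters of the same length. Those 7 were 55.6% (*Arl4d*) to 79.2% (*Arf6*) G or C, and *Pld1* was 45.2%. The share with a GC box was not compared at equal base composition. Thyroid hormone receptors are known to bind direct repeats of the half-site AGGTCA spaced by 4 bases. The repeat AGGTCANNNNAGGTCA was found in 0 members on either strand and in 0.00299% of all promoters, and neither *Pld2* nor *Arl4c* held a single AGGTCA in this window.

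A single AGGTCA, or its reverse complement, was found in the promoters of *Arf6* and *Arl4a* and in 14.1% of all promoters. Both stretches are shown with the half-site in capitals, since these are the members whose promoter carries it.

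Arf6: agggccgcagttTGACCTgccgcgtgctga

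Arl4a: agggttggaactTGACCTtgtttggacgtt

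The stretches lie at chr6:93589593-93589622 on the plus strand and chr6:62811496-62811525 on the minus strand (GRCr8). The half-site begins 172 bases before the start of *Arf6* and 216 bases before that of *Arl4a*. Neither transcript separated the groups, with log2 differences of 0.01 and -0.06. The half-site variant GGGTCA, on either strand, was found among the members only in *Pld1*, and in 11.9% of all promoters. A match of letters describes the sequence and is no measure of binding, and the windows without a match say nothing about the receptor elsewhere.

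Genes beside *Pld2* and *Arl4c* on the chromosome did not pass the threshold. Next to *Pld2* lie *Psmb6* (log2 difference 0.42, limma adjusted p = 0.291) and *Mink1* (-0.21, limma adjusted p = 0.292), and next to *Arl4c* lie *Trpm8* (-0.60, limma adjusted p = 0.571) and *Sh3bp4* (0.37, limma adjusted p = 0.150), in the gene order of GRCr8. *Pld1*, *Arl4a* and *Arl4d* each overlap another annotated gene there, and how reads were assigned to strands in the counting is not given in the sources used here, so their values could hold reads of those genes. No gene overlap was annotated for *Pld2*, *Arl4c* or the other 3 members.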

How the data were processed

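Libraries came from the laser captured posterior VZ of 13 male pups, 7 control and 6 PTU exposed. According to the study's methods and the submitters' processing notes, the authors used Trimmomatic to trim reads and STAR 2.7.8a to align them (genome mRatBN7.2). Transcripts were quantified by expectation maximization in Partek and scaled by median ratio. What was deposited is thus a scaled signal, named normalized counts here, from which raw counts cannot be read off. Rows carry Ensembl identifiers although a RefSeq annotation is named in the methods, and names of genes are those in that table. How low rows were removed before deposit is not given in the sources used here. The columns of the authors' own DESeq2 comparison (group means, ratio, log2 ratio, fold change, p-value and FDR) were not used.

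The members and lists were chosen with earlier results of these data known. Rows with a mean of at least 10 (14606 of 14716) entered on the log2(normalized count + 1) scale and were compared with limma 3.58.1 in R 4.3.3 (empirical Bayes with a variance trend, treatment as the only term, Benjamini-Hochberg adjustment, threshold 0.05). The limma step and the correlation step were tested on simulated data. Genes named from each wider list are those past the threshold, the 3 with the smallest unadjusted p and *Arfgef2*. For correlations, group means were subtracted and 100000 two-sided permutations drawn. Marker scores are means of row-centred log2 values. Sequencing depth was inferred from the spacing of low values: 88.8 to 90.5% of values from 20 to 150 were whole multiples within 0.05 of a step, so reads could not be recovered and no count model was used. Promoter letters came from RefSeq tables of GRCr8, whose coordinates are not those of the count table. Levels were not compared between genes, since transcript lengths were not used here. Alternatives changed the pseudocount, the filter, the scaling, the weights, the covariates and the pups included. Sums, correlations and plots were made in Python 3.11.15 (scipy 1.17.1, pandas 2.3.3, matplotlib 3.10.9).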

Additional observations from a re-analysis of the deposited data

How the results depend on the processing

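The number of rows called in limma rose from 0 to 40 with array weights (18 higher, 22 lower), to 4 with the choroid plexus score as a covariate, and to between 0 and 179 with 1 pup left out (179 without PTU pup 2, 61 higher and 118 lower, and 7 without control pup 6). A block for the replicate number gave 18 called rows (2 higher, 16 lower). Pups with the same number came from different litters, their deviations correlated at -0.07 to 0.20 (above 0.1 in 4 of 6 pairs), and control pup 7 had no partner. The labels name no batch that the numbers could mark, and a shared capture or library batch was not tested. Rows with an unadjusted p under 0.05 numbered 1424 with the neuronal score as a covariate and 1791 to 2997 with 1 pup left out. Equal totals for all pups gave 1665 such rows, of which 1584 were higher and 81 lower, against 1185 and 1198 as reported. Rows without overlap numbered 37 with the same total and 99 to 371 with 1 pup left out. Member pairs past the threshold numbered 21 with the same total and 0 to 3 with 1 pup left out (0 without control pup 6 and without PTU pup 6). With the same total, the log2 differences were -0.46 for *Pld2*, 0.62 for *Arl4c*, 0.30 for *Arf1* and 0.22 for *Arf6*. Under this scaling the median of all rows moved to 0.20, and relative to it these 4 members were at -0.66, 0.41, 0.10 and 0.01. The cause of the shifts listed here was not tested. Called genes of the wider lists numbered 0 in every alternative run. The planned order of members' levels per transcript length was not run, as lengths were not used here. The SD within groups was 0.28 on the log2 scale for the median row and 0.11 to 0.41 for the members.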
